A study of Mus musculus with 2 samples.

Results

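The collagen chains of the newborn mouse suture are described here in 2 bulk RNA libraries. A chain was taken as any gene whose symbol is Col, a type number, the letter a and a chain number. This gave 44 of the 23930 amplicon targets measured. The libraries, called library 1 and library 2, were made from coronal, sagittal and lambdoid sutures of wildtype mouse pups at postnatal day 3. They form 1 group with 1 batch number, carry no treatment or engineered allele, and allow no comparison between conditions. Suture stem cells are the labelled cell type, but the protocol describes whole tissue with no sort, and markers of muscle, cartilage, vessels and nerve were all read. In such bulk tissue fewer cells of a type and less RNA per cell cannot be told apart. Separate pups or pools are not named for them, so SDs measure only the spread between these libraries, which may be technical, and p-values measure counting error alone. Library 1 held 5663344 reads and library 2 held 15802610. Values are CPM, a target's reads scaled to the same total in each library. Each gene was read by a short amplicon, so its reads do not grow with gene length, but amplicons differ in efficiency, and the order of different chains is less certain than the difference of 1 chain between libraries.

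Collagens are the main proteins of bone, cartilage, tendon and basement membranes. Each molecule is a trimer of chains wound into a triple helix, which needs a glycine at the first position of each triplet of residues. Fibrillar collagens have a long unbroken helix and assemble into fibrils. Network collagens join into sheets or lattices, as in basement membranes and around hypertrophic chondrocytes. FACIT collagens (fibril-associated collagens with interrupted triple helices) bind to the surface of fibrils, and transmembrane collagens stay anchored in the cell membrane. In the suture, type I fibrils make up the bone fronts and the fibrous tissue between them. Type II, IX, X and XI collagens are known from cartilage.

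The repeat that makes a chain a collagen can be read in its coding sequence. Below are stretches of 30 codons from GENCODE M21 transcripts (GRCm38), 5′ to 3′, with every codon for glycine (GG and any base) in capitals. They are shown because the classes differ in how long this rhythm holds. For Col1a1 the stretch runs from codon 168 to 197, at the start of its longest run of glycine triplets. For Col4a1 it runs from codon 148 to 177 and for Col12a1 from codon 2886 to 2915, both across the end of the longest run.
Col1a1: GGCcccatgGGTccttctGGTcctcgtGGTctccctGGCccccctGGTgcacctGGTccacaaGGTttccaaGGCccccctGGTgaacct
Col4a1: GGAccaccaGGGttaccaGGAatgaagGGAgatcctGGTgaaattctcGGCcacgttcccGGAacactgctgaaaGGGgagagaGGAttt
Col12a1: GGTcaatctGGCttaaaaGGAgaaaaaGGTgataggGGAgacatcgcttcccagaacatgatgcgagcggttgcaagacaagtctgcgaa
In Col1a1 a glycine codon opens each triplet throughout. Within the stretches shown, the rhythm slips and then returns in Col4a1, and in Col12a1 it stops. Over its whole coding sequence Col12a1 had 4 runs of at least 6 triplets, so this stop is the end of 1 run. Counted over the longest coding sequence of each gene, with runs of at least 6 triplets, the 11 fibrillar chains had a longest run of 216 to 344 triplets and 2 or 3 runs each. The low end was Col24a1 with 216 and Col27a1 with 217, while Col1a1 had 338. The 9 network chains had a longest run of 39 to 66 triplets in 8 to 27 runs. The 9 FACIT chains ranged from 32 in Col12a1, Col14a1 and Col20a1 to 113 in Col22a1 and the type IX chains. The 4 transmembrane chains ranged from 40 to 55 triplets. In the 6 type VI chains the longest run was 37 to 87.

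**Figure D1:**
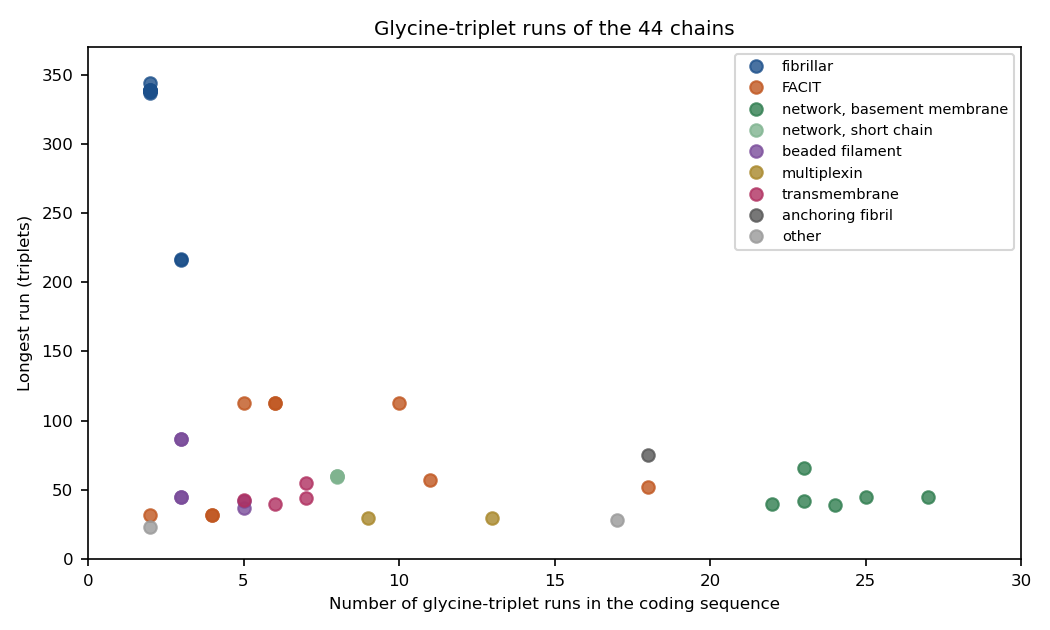
Number of glycine-triplet runs (x axis) against the longest run in triplets (y axis) for the 44 chains, 1 point per chain, coloured by class. The fibrillar chains lie alone at the upper left, with 216 triplets or more, and the basement membrane chains lie at the right with 22 to 27 runs.

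Most of the family was expressed in both libraries. Of the 44 chains, 37 (84.1%) reached 1 CPM in both libraries, against 55.0% of all targets, and 31 reached 10 CPM in both, against 34.6% of all targets. The median chain stood at 63.4 CPM (mean of the libraries), beside 3.29 CPM for the median target. Collagen chains took 16.1% of all reads in library 1 and 17.5% in library 2, and 9 of them were among the 100 highest targets. Counted in reads, this was almost wholly type I collagen. Col1a1 and Col1a2 together made up 91.0% of collagen reads in library 1 and 88.9% in library 2. Without them the other 42 chains took 1.45% of all reads in library 1 and 1.95% in library 2. Of the collagen reads outside type I, fibrillar chains held 52.5% and 55.7%, FACIT chains 20.8% and 20.0% and type VI chains 15.04% and 16.7%. The network chains held 8.65% and 5.52% of them and the transmembrane chains 0.463% and 0.447%, in library 1 and library 2.

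In the order of mean levels, Col1a1 and Col1a2 each stood clear of the chain below, with no overlap between the libraries of neighbouring chains. The next 15 chains, from Col12a1 to Col15a1, formed a sequence in which each overlapped the next, so neighbours in it were not separated by the spread of the libraries. A further 17 chains, from Col16a1 to Col7a1, overlapped in the same way. The 10 chains below them averaged under 3 CPM.

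**Figure D2:**
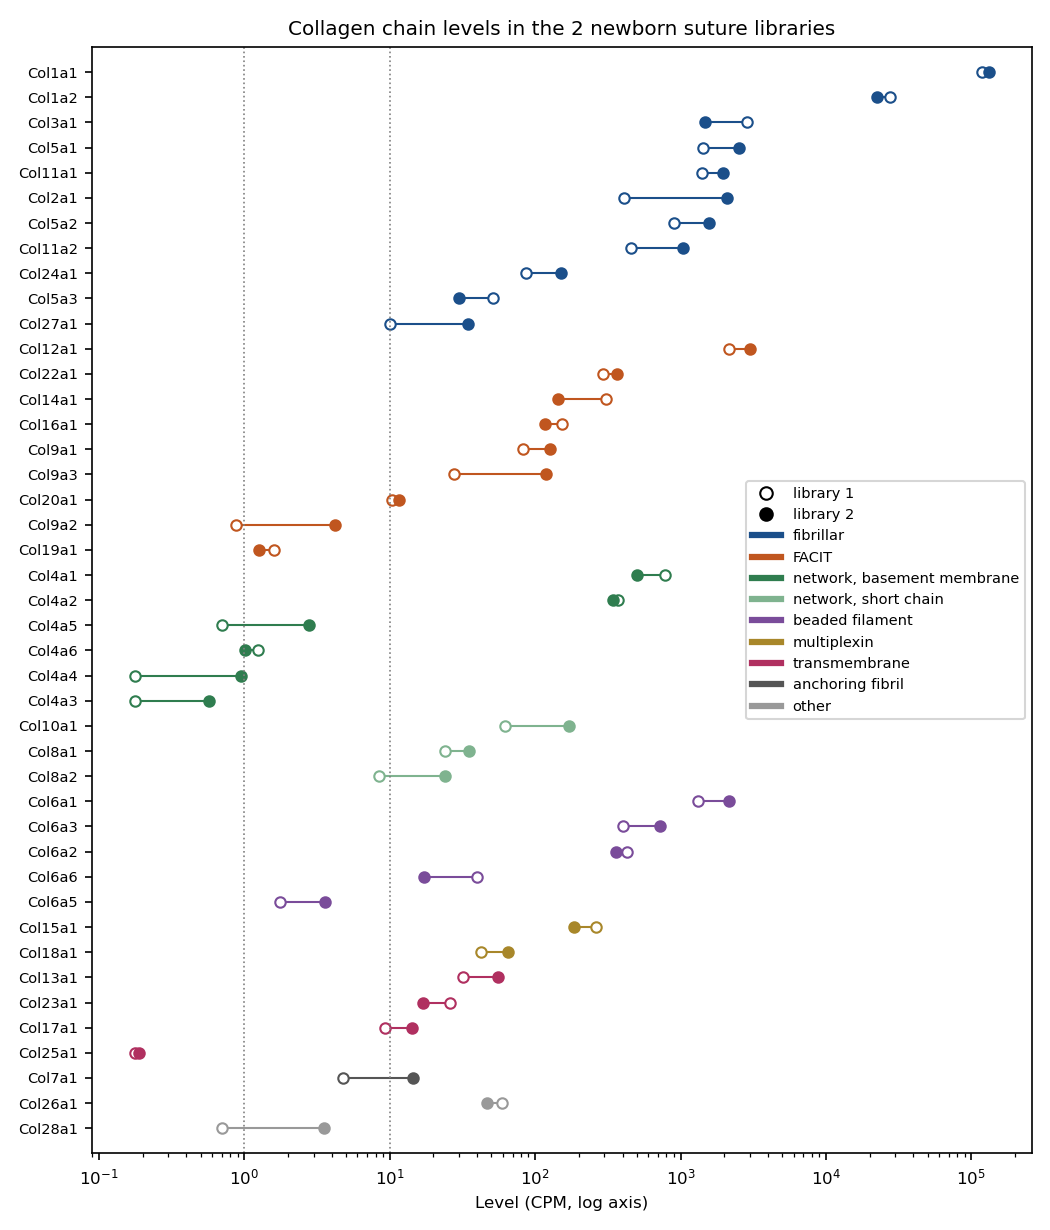
Level of each chain in CPM on a log axis, grouped by class, with open circles for library 1, filled circles for library 2 and dotted lines at 1 and 10 CPM. Col1a1 and Col1a2 stand at the far right, and Col4a3, Col4a4 and Col25a1 lie left of 1 CPM in both libraries; Col6a4 had no reads and is not drawn.

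All 11 fibrillar chains exceeded 10 CPM in both libraries, the only class with more than 2 chains for which this held. Col1a1, the major chain of bone and suture collagen (mm10 chromosome 11, 94936224 to 94953042), stood at 119187 CPM in library 1 and 132878 in library 2, and was the highest of all targets in both. Col1a2, its partner in the type I trimer (chromosome 6, 4504814 to 4541544), stood at 27745 and 22481 CPM, in that order of libraries. Both type I chains were thus far above every other collagen in each library. Col3a1, the chain of type III collagen found in soft and vessel-rich connective tissue, was read at 2879 CPM in library 1 and 1467 in library 2. Col5a1 and Col5a2, chains of the type V collagen that nucleates type I fibrils, moved the other way. Col5a1 rose from 1438 CPM in library 1 to 2522 in library 2 and Col5a2 from 901 to 1560. Col5a3, a less common type V chain, had 51.0 and 30.1 CPM and went with Col3a1. Col11a1, which nucleates cartilage fibrils and can join type V chains outside cartilage, stood at 1396 and 1971 CPM. It was close to Col5a1 in library 1 and below it in library 2. Its type XI partner Col11a2 had 453 and 1041 CPM. Col2a1, the main collagen of cartilage (chromosome 15, 97975602 to 98004695), had 407 CPM in library 1 and 2078 in library 2, and its SD of 1181 CPM was almost as large as its mean of 1243 CPM (n = 2). Its level in the suture therefore depends on the library. Col24a1, a fibrillar chain known from forming bone, had 86.5 and 150 CPM, and Col27a1, known from cartilage, 10.1 and 34.5 CPM.

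The FACIT class was led by Col12a1, which coats type I fibrils in dense connective tissue and periosteum (chromosome 9, 79598991 to 79718831). It stood at 2147 CPM in library 1 and 3015 in library 2 and was the highest collagen after type I by mean level (2581 CPM ± 613, SD, n = 2). Col14a1, a related chain of tendon and skin, ran against it, with 307 CPM in library 1 and 144 in library 2. Col22a1, known from the junction of muscle and tendon, had 293 and 365 CPM, and Col16a1, a chain of skin and cartilage matrix, 153 and 117 CPM. Type IX collagen, which decorates cartilage fibrils, is a trimer of 3 different chains. Col9a1 had 82.3 and 126 CPM and Col9a3 27.9 and 118 CPM. Col9a2 was far lower, at 0.883 CPM in library 1 (5 reads), with an exact 95% Poisson interval of 0.287 to 2.06, and at 4.18 CPM in library 2 (66 reads), with an interval of 3.23 to 5.31. Whether this gap lies in the transcripts or in the amplicons was not tested. Col20a1 stood at 10.4 and 11.6 CPM, and Col19a1, a chain of muscle and nerve tissue, at 1.59 and 1.27 CPM.

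The network class was split between abundant and nearly silent chains. Col4a1 and Col4a2 form the basement membrane collagen of vessels and most other tissues. Col4a1 had 787 CPM in library 1 and 498 in library 2, and Col4a2 372 and 342 CPM. The chains of specialised basement membranes, as in kidney, eye and inner ear, were at the other end. Col4a5 had 0.706 CPM in library 1 (4 reads) and 2.78 in library 2 (44 reads), and Col4a6 1.24 and 1.01 CPM. Col4a3 was read 1 and 9 times and Col4a4 1 and 15 times in library 1 and library 2, and both stayed under 1 CPM. Of the 6 type IV chains, 2 exceeded 10 CPM. The short-chain network collagens were intermediate. Col10a1, the marker collagen of hypertrophic chondrocytes (chromosome 10, 34389981 to 34397085), had 61.8 CPM in library 1 and 172 in library 2. Col8a1, known from vessel walls and the cornea, had 24.2 and 34.9 CPM, and its relative Col8a2 8.48 and 23.9 CPM.

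Transmembrane chains were low as a class, with summed levels of 67.3 CPM in library 1 and 87.1 in library 2. Col13a1, known from cell adhesion sites and the neuromuscular junction, had 31.8 and 55.8 CPM and Col23a1 26.0 and 17.0 CPM. Col17a1, the hemidesmosome collagen of skin, had 9.36 and 14.2 CPM. Col25a1, known from neurons, had a single read in library 1, under the 3 reads (0.530 CPM) that a count of 0 allows there, and 3 reads (0.190 CPM) in library 2, equal to that limit. These limits and all intervals cover counting error only.

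Of the chains outside these classes, type VI collagen, which forms beaded filaments around cells, was the most abundant. Col6a1 had 1312 CPM in library 1 and 2152 in library 2, Col6a3 400 and 727 CPM, and Col6a2 430 and 360 CPM. The 3 chains that can stand in for Col6a3 were lower. Col6a6 had 40.1 and 17.1 CPM and Col6a5 1.77 and 3.61 CPM. Col6a4 had no read in either library, which by the limit of 3 reads allows a level of up to 0.530 and 0.190 CPM. Col15a1 and Col18a1, collagens of basement membrane zones, had 263 and 186 CPM and 42.7 and 64.6 CPM. Col7a1, the anchoring fibril collagen of skin, had 4.77 and 14.4 CPM. Col26a1 had 58.8 and 47.0 CPM, and Col28a1, known from peripheral nerve, 0.706 and 3.54 CPM.

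The collagen total was almost equal in the libraries, but its make-up was not. Several cartilage chains were more than 2-fold higher in library 2, while Col14a1 and Col6a6 were over 2-fold higher in library 1. The comparison is between 2 libraries of 1 group and not between conditions. Reads were set against the library totals with a two-sided exact binomial test, with Benjamini-Hochberg adjustment over all targets. It called 35.9% of all targets. Of the 44 chains, 24 were higher in library 2 (19.7% of all targets), 12 were higher in library 1 (16.2% of all targets) and 8 were not called. By class, it called 8 fibrillar, 5 FACIT, 4 network and 2 transmembrane chains higher in library 2, and 3, 2, 2 and 1 higher in library 1. This test covers counting error only, so it calls most well-read genes. Among targets at a mean of 10 CPM or more it called 69.1%, and of the 33 chains there 32, whose median level of 224 CPM is above the 36.5 CPM of those targets. A fold threshold is less bound to depth. Past 2-fold on log2(CPM + 1), with a pseudocount of 1 CPM, lay 8 of the 33 chains (24.2%), against 15.2% of the 9192 targets at that level. Of these, 6 were higher in library 2 (7.89% of targets) and 2 higher in library 1 (7.27% of targets). The median difference of the 33 chains, library 2 minus library 1, was 0.50 on the log2 scale, beside 0.05 over the 9192 targets. No test against other genes was made, so nothing here sets collagens apart from other genes of their level.

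**Figure D3:**
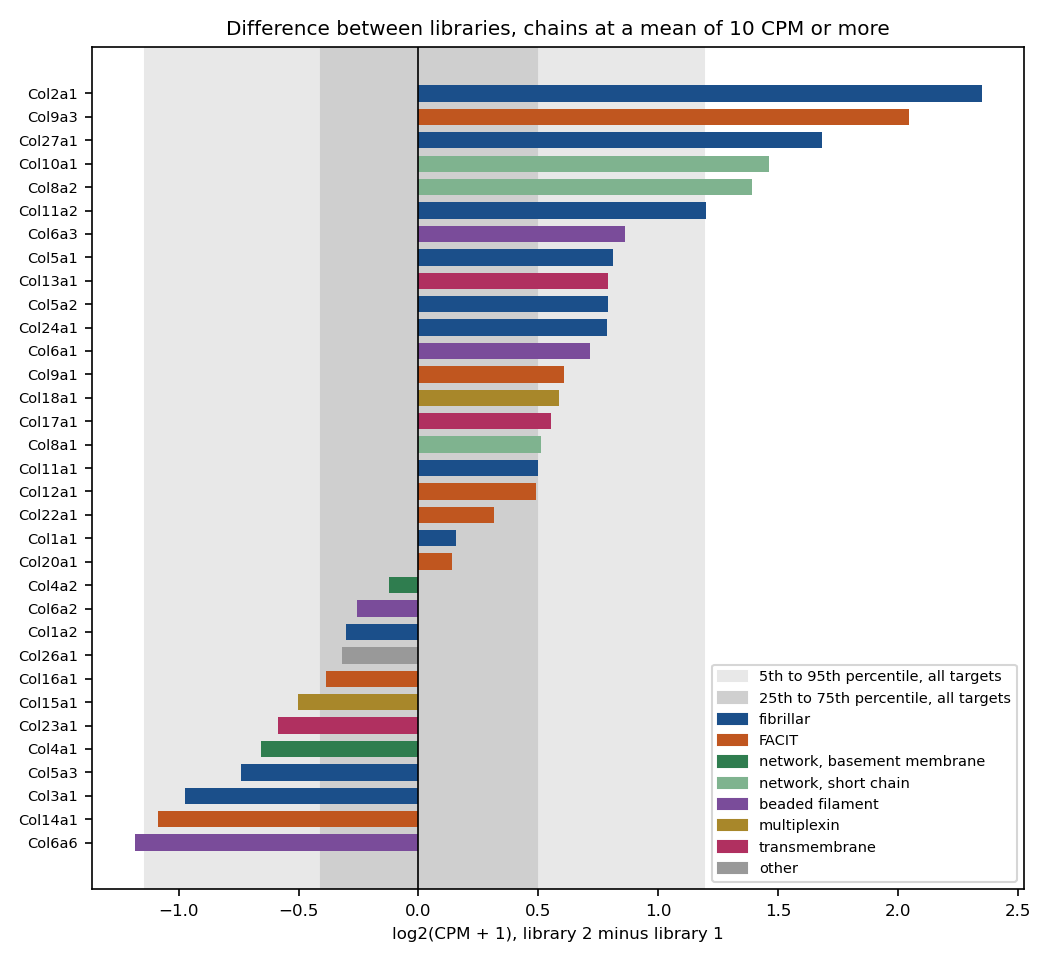
Difference of log2(CPM + 1), library 2 minus library 1, for the 33 chains at a mean of 10 CPM or more, coloured by class. Grey bands give the 25th to 75th and the 5th to 95th percentile of the 9192 targets at that level; Col2a1 at 2.35 and Col9a3 at 2.05 lie beyond the wider band, as do Col27a1, Col10a1, Col8a2, Col11a2 and, on the other side, Col6a6.

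Among the 33 chains Col2a1 differed most, at 5.10-fold higher in library 2, followed by Col9a3 at 4.24-fold (exact binomial test, adjusted p = 4.16e-99) and Col27a1 at 3.43-fold (same exact test, adjusted p = 7.68e-24). Col8a2 was higher by 2.81-fold, Col10a1 by 2.78-fold and Col11a2 by 2.30-fold. Higher in library 1 were Col6a6 by 2.35-fold and Col14a1 by 2.13-fold, with adjusted p of 6.24e-19 and 5.42e-116 by the exact test. Col3a1 lay just inside the threshold, 1.96-fold higher in library 1 (-0.97 on the log2 scale), and passed it with TMM factors (-1.002) or median of ratios (-1.01). Col1a1 differed by 1.11-fold and Col1a2 by 1.23-fold, in opposite directions. Of the well-measured chains, Col20a1 was the 1 not called (exact test, adjusted p = 0.856).

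The chains of types II, IX, X and XI were higher in library 2 without exception. These 7 chains, grouped by type after their values had been seen, summed to 2429 CPM in library 1 and 5511 in library 2, a ratio of 2.27. Of the 6 at a mean of 10 CPM or more, 4 passed 2-fold toward library 2, beside 7.89% of the targets at that level. Markers of chondrocytes that are not collagens moved with them. The 12 markers of that list, all measured and none at 0, summed to 796 CPM in library 1 and 1763 in library 2, a ratio of 2.22, with 10 higher in library 2 and 2 in library 1. The highest was Acan, the main cartilage proteoglycan, at 344 and 840 CPM. Beside such counts, 36.9% of targets at a mean of 10 CPM or more were called higher in library 2 and 32.2% in library 1. Over all targets the shares were 19.7% and 16.2%. The marker lists were not filtered by level. Genes of other tissues near the skull also differed. All 8 olfactory markers, led by Omp, were higher in library 2 and summed to 102 and 728 CPM, and all 6 tooth germ markers, led by Amelx, to 118 and 529 CPM. All 8 neuron markers, led by Tubb3, were higher in library 2 too (214 and 798 CPM summed), as were 4 of 6 markers of the meninges, led by Ptgds. The 8 markers of tissues that were not sampled, such as Apoa2 of the liver, summed to 13.95 and 3.67 CPM. Even of these low genes 3 were called higher in library 1, and 5 were not called. The part of these tissues in the collagen differences was not tested.

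Other lists were read beside the chains that were higher in library 1. The same shares of targets, 36.9% called higher in library 2 and 32.2% in library 1, stand beside their counts. The 6 type IV chains summed to 1161 CPM in library 1 and 845 in library 2, a ratio of 1.37 toward library 1. This sum is almost wholly Col4a1 and Col4a2, both higher in library 1, while Col4a5 was higher in library 2 and Col4a3, Col4a4 and Col4a6 were not called. The 8 endothelial markers, led by Pecam1, summed to 754 and 549 CPM, with 4 called higher in library 1 and 4 not called. The 7 measured markers of pericytes and smooth muscle, the other vessel wall cells, went the other way. Led by Pdgfrb, they summed to 434 and 664 CPM, with 4 called higher in library 2 and 3 not called. Keratinocyte markers, led by Krt15, summed to 106 and 104 CPM, but single genes differed. Of the 8, 2 were called higher in library 1, 2 higher in library 2 and 4 not called. Past 2-fold lay 2 toward library 1 and 1 toward library 2. Skeletal muscle markers, led by Mylpf, were all 10 higher in library 1 and summed to 47382 and 14841 CPM. The tendon and ligament list of 6 was led by Fmod, which was higher in library 2, at 449 and 720 CPM. The other 5 were higher in library 1, among them Tnmd, at 362 and 86.6 CPM. The list's sum differed by 1.13-fold only. Osteoblast markers summed higher in library 1 (20205 and 17324 CPM) through Sparc, whereas 7 of the 8 measured were higher in library 2, with a median log2 difference of 1.02. The part of these cell types in the levels of Col3a1, Col14a1 or type IV chains was not tested.

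**Figure D4:**
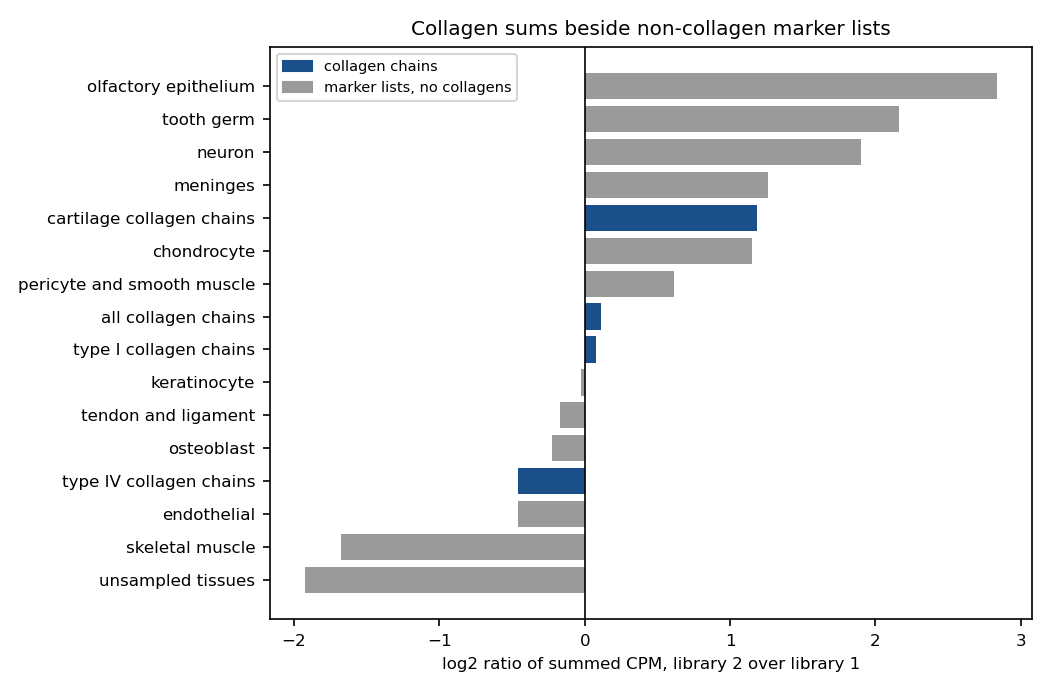
Log2 ratio of summed CPM, library 2 over library 1, for collagen sums (blue) and for marker lists without collagens (grey), 1 bar per sum. Cartilage collagens and chondrocyte markers lie to the right of 0; type IV collagen and endothelial markers lie to the left and pericyte and smooth muscle markers to the right.

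Promoter sequence is shown for 3 chains that were higher in library 2, Col10a1 and both type XI chains, and for Col3a1, which was higher in library 1. Each line gives the 250 bases before the start that RefSeq annotates on GRCm38.p6, 5′ to 3′ in the direction of the gene, all on the plus strand. No annotated exon lies in these windows. Capitals mark matches, on either strand, to the TATA box (TATAAA), the CCAAT box (CCAAT) or the GC box (GGGCGG). The windows are chr10:34389731-34389980 for Col10a1, chr3:114030290-114030539 for Col11a1, chr17:34038888-34039137 for Col11a2 and chr1:45311288-45311537 for Col3a1.
Col10a1: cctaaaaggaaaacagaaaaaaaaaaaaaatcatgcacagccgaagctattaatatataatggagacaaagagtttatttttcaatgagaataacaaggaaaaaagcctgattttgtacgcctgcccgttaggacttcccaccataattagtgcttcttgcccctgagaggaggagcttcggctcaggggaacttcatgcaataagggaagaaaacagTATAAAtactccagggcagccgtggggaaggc
Col11a1: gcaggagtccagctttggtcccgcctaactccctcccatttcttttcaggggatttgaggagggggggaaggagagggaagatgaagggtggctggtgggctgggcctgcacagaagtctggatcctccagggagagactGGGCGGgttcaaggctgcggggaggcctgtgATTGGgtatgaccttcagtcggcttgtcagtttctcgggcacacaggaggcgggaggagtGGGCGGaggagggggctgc
Col11a2: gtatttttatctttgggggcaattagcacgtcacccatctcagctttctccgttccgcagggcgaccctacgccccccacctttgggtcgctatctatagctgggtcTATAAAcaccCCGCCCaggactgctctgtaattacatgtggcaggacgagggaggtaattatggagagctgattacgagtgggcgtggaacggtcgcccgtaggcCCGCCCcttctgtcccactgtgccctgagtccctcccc
Col3a1: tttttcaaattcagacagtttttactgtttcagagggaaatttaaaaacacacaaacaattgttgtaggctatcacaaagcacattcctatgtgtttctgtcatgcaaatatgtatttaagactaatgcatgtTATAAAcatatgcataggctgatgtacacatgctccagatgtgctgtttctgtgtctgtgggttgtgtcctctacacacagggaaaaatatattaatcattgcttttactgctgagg
Col10a1 has a TATA match 32 bases before its start, Col11a1 a pair of GC matches and a reversed CCAAT match, and Col11a2 a TATA match 143 bases before the start and a pair of reversed GC matches. In Col3a1 the TATA match lies 117 bases before the start. Windows were found for 35 of the 44 chains. Of these, 5 (14.3%) held a TATA match, 13 (37.1%) a CCAAT match and 21 (60%) a GC match in at least 1 window. Over all 32851 windows of the same length the shares were 12.4%, 33.8% and 32.7%. These count single windows, whereas a chain with more than 1 window had more than 1 chance of a match. The median of all windows was 52.4% G and C. Collagen windows ran from 35.2% (Col3a1) to 76.4% (Col5a1), and most lay above that median. The shares were not compared at equal base composition, which matters for a motif of G and C alone. No motif was found in all 4 windows shown, and a match is a description of letters and not evidence of binding.

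Pairs of chains were then compared by the ratio of their reads, which does not depend on how the libraries are scaled. Of 16 pairs, 11 joined chains of 1 collagen type and 5 chains of different types. Fisher's exact test, adjusted over the 16 pairs, called a difference between libraries in 9 of the 11 and in all 5. The ratio changed by at least 2-fold in 3 of the 11 and in 3 of the 5. The pairs are a chosen list in which some chains recur, and no other gene pairs were read beside them. These counts therefore do not set pairs of 1 type apart from pairs of different types or from other genes. The pair with the smallest change was type V collagen. Col5a1 to Col5a2 was 1.60 in library 1 (exact 95% interval 1.54 to 1.65) and 1.62 in library 2 (1.59 to 1.64), and Fisher's exact test gave an adjusted p of 0.545. In type VI collagen, Col6a1 to Col6a3 went from 3.28 to 2.96, a small change, but Col6a1 to Col6a2 from 3.05 (interval 2.91 to 3.19) to 5.98 (5.81 to 6.15), a 1.96-fold change. Type VI chains therefore split, with Col6a2 apart from both partners. For type I collagen, a trimer of 2 Col1a1 chains and 1 Col1a2 chain, the ratio of Col1a1 to Col1a2 was 4.30 in library 1 and 5.91 in library 2. The ratio of type IV chains, Col4a1 to Col4a2, fell from 2.11 to 1.46 and that of type VIII chains, Col8a1 to Col8a2, from 2.85 to 1.46. In type IX collagen, Col9a1 to Col9a3 was 2.95 (2.46 to 3.56) in library 1 and 1.06 (0.997 to 1.13) in library 2. Col9a1 to Col9a2, resting on 5 reads of Col9a2 in library 1, went from 93.2 (39.7 to 288) to 30.1 (23.6 to 39.1). The type XI ratio of Col11a1 to Col11a2 went from 3.08 to 1.89. The widest change, 4.81-fold, was that of Col4a5 to Col4a6, from 0.571 to 2.75, on 4 reads of Col4a5 and 7 of Col4a6 in library 1 (Fisher's exact test, adjusted p = 0.0356).

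Between collagen types, Col11a1 to Col2a1 was 3.43 in library 1 and 0.949 in library 2, a 3.61-fold change, as Col11a1 was 1.41-fold higher in library 2 and Col2a1 5.10-fold. Col5a1 to Col11a1 changed less, by 1.24-fold, from 1.03 to 1.28. Col10a1 to Col2a1, a hypertrophic against a general cartilage chain, went from 0.152 to 0.0827. Col3a1 to Col1a1 went from 0.0242 to 0.0110 and Col12a1 to Col14a1 from 7.0 to 21. Of these, the change of Col10a1 to Col2a1 had the highest adjusted p in Fisher's exact test, 8.09e-21. This test covers counting error and no variation between animals. Amplicon efficiency cancels when a ratio is compared between libraries, but not in the ratio itself, so the ratios do not give the stoichiometry of the chains.

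**Figure D5:**
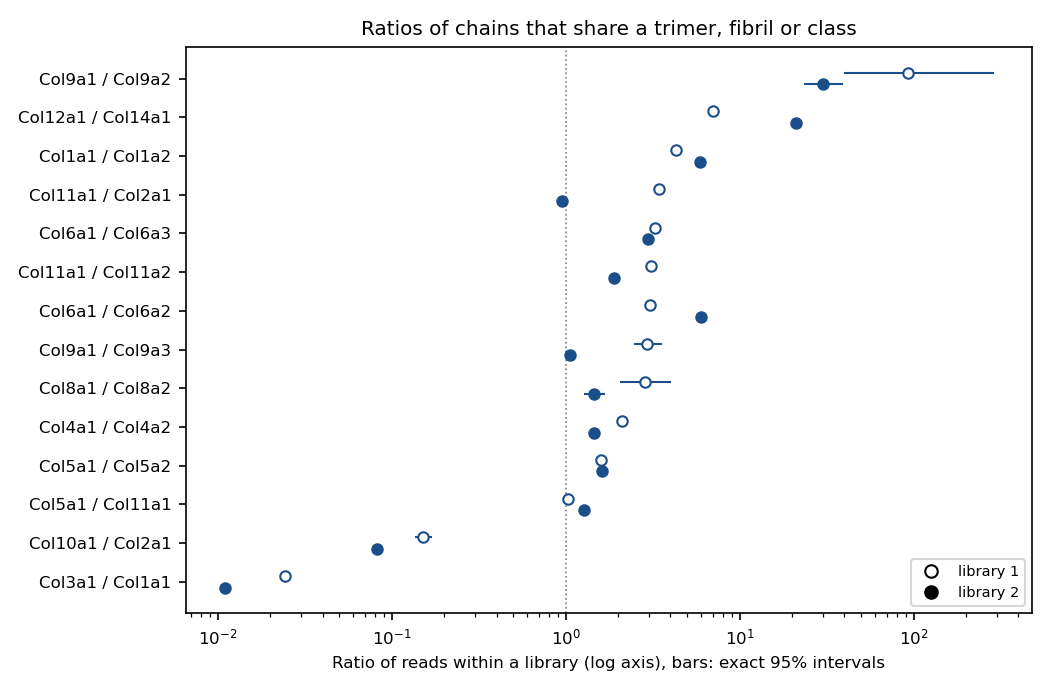
Ratio of reads of paired chains within library 1 (open) and library 2 (filled) on a log axis, with exact 95% intervals; the Col4a3 to Col4a4 and Col4a5 to Col4a6 pairs, read fewer than 5 times for a chain in library 1, are not drawn. The Col5a1 to Col5a2 points coincide, whereas Col11a1 to Col2a1 and Col12a1 to Col14a1 lie far apart.

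Chains that are neighbours in the genome did not all share a direction. In the annotation Col4a1 and Col4a2 lie head to head on chromosome 8 and the genes overlap by 22 bases. Both were higher in library 1, by 1.58-fold and 1.09-fold, with adjusted p of 1.13e-122 and 0.00321 by the exact binomial test. Without knowledge of strand in the counting, reads in an overlap cannot be assigned, and the amplicon positions were not used here. The other head-to-head pairs, Col4a3 with Col4a4 (71 bases apart on chromosome 1) and Col4a5 with Col4a6 (1308 bases apart on chromosome X), were all read under 3 CPM. Col3a1 and Col5a2, tail to tail and 24614 bases apart on chromosome 1, differed in opposite directions, by 1.96-fold toward library 1 and 1.73-fold toward library 2. Col6a2 and Col6a1, in line and 85161 bases apart on chromosome 10, did so too. The remaining neighbours were Col9a1 with Col19a1 (9205 bases apart), Col6a6 with Col6a5 (27917) and Col6a5 with Col6a4 (28810). Each of these pairs held a chain that was not called. Neighbouring genes outside the family were not compared.

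The genes that fold, process, bind and degrade collagen were read alongside the chains. Of 29 folding, processing and crosslinking genes, 28 were measured and 27 reached 1 CPM in both libraries. In the exact binomial test 13 (46.4%) were higher in library 2, 9 (32.1%) in library 1 and 6 were not called. The shares of targets called in these directions were 36.9% and 32.2% at a mean of 10 CPM or more. Over all targets they were 19.7% and 16.2%, and the gene lists here were not filtered by level. The median log2 difference of the 28 genes was 0.29. The highest were Serpinh1, the collagen chaperone, at 1173 CPM in library 1 and 752 in library 2, P4hb, a subunit of prolyl 4-hydroxylase, at 691 and 849 CPM, and Pcolce, which enhances removal of the procollagen C-propeptide, at 461 and 753 CPM. All 9 measured collagen receptor genes reached 1 CPM, with 5 (55.6%) higher in library 2, 1 (11.1%) in library 1 and 3 not called. They were led by Mrc2, an uptake receptor for collagen, at 277 and 460 CPM, the integrin chain Itgb1 at 206 and 266 CPM and its collagen-binding partner Itga11 at 100.3 and 178 CPM. Of 7 breakdown genes 6 reached 1 CPM, with 2 (28.6%) higher in library 2, 1 (14.3%) in library 1 and 4 not called. Lists this short give no more than these counts beside the same shares of targets. Mmp9, a gelatinase of osteoclasts, had 1784 and 1354 CPM, Mmp14 594 and 771 CPM, and the collagenase Mmp13 310 and 316 CPM. None of the receptor and breakdown genes passed 2-fold. Among targets at a mean of 10 CPM or more 15.2% did, 7.89% toward library 2 and 7.27% toward library 1. Of the 28 processing genes 2 did, not above that share and named after their values were seen. Loxl4, a lysyl oxidase that crosslinks collagen, had 30.4 and 96.0 CPM, and Adamts3, a procollagen N-proteinase, 15.4 and 32.5 CPM, both higher in library 2.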

How the data were processed

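Total RNA of 2 suture libraries was read with the Ion AmpliSeq mouse transcriptome panel, per the labels' protocols. The authors deposited CPM values per amplicon target, and the submitters' processing notes name the build mm10. The sources used here name no aligner or counting step. Each value was a whole multiple of 0.177 CPM in library 1 and 0.0633 CPM in library 2 (100% of values within 0.01 reads), which gave back the reads. A date stood in place of 27 symbols, restored from the target names.

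Levels are CPM, and log2 differences use a pseudocount of 1 CPM, which understates the change of low genes. Libraries were compared with an exact binomial test on reads (scipy 1.17.1; the smaller tail doubled, Benjamini-Hochberg over 23930 targets, threshold 0.05), which called 8600 targets (35.9%), and by fold. The test was run on data simulated with counting error alone, so that check does not cover other variation between libraries. Alternatives were TMM factors (edgeR 4.0.16), median of ratios, other pseudocounts, filters and folds. Positions and coding sequences come from GENCODE M21 on GRCm38, the assembly of mm10, and promoters from RefSeq. Protein sequences were not used here, and 1 marker list is not reported here. All chains could be named. From pathway lists the 3 highest genes were named and from marker lists the highest. Tnmd, Loxl4 and Adamts3 were named after their values were seen. Members and lists were chosen with earlier results of these data known.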

Additional observations from a re-analysis of the deposited data

How the results depend on the processing

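All 215 log2 differences of single chains kept their direction and call. They were recomputed with pseudocounts of 0.5 and 5 CPM, TMM factors, median of ratios and totals without Col1a1. The pseudocount settings could change neither direction nor call, as the test uses no pseudocount and an equal addition keeps the sign. Only the other scalings were therefore a check. The counts called between libraries stayed at 24 and 12 under each scaling and with adjustment over targets at 1 CPM or more only. The number of chains detected ranged from 31 (at 10 CPM) to 40 (at 0.5 CPM), with 37 to 40 in a single library. The collagen share of reads was 16.1% to 17.5% in single libraries and 17.7% without Rpph1 and Rmrp. Leaving Col1a1 out of the total moved the mean class shares of collagen reads from 95.4% to 81.5% for fibrillar, 0.697% to 2.77% for network, 2.05% to 8.23% for FACIT, 0.0457% to 0.183% for transmembrane and 1.61% to 6.47% for type VI chains. The count past 2-fold toward library 2, 6, became 10 with a filter at 1 CPM or no filter, 14 at 1.5-fold and 3 at 3-fold. Toward library 1 it went from 2 to 6 at 1.5-fold and 0 at 3-fold, where the exact binomial test called 12, and to 3 with TMM factors or median of ratios. With totals without Col1a1 the mean levels of Col4a2 (408 CPM), Col6a2 (452), Col20a1 (12.6), Col4a6 (1.29) and Col25a1 (0.210) moved by more than the SD of the libraries. That setting raises every other chain by nearly the same factor, so these chains stand out by their small SD and not by a larger move. With 2 libraries each lies within 1 SD of the mean by arithmetic, so levels in single libraries were not read as a check. No paired analysis was possible because the libraries form 1 group. With 2 libraries, depth is not the main limit for chains above 10 CPM; below 1 CPM a chain rests on at most 5 reads in library 1.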
